A study of Mus musculus with 6 samples.

Results

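Retinoid binding and retinoic acid metabolism are represented here by 9 genes, all of them present among the 14228 genes of the deposited table: Rbp4, Crabp1, Crabp2, Rdh10, Aldh1a1, Aldh1a2, Aldh1a3, Rarb and Rarres2. They were chosen by gene symbol, with the values of cancer-associated and normal fibroblasts in these libraries already known, so the differences given for these 9 genes between the groups are a description and support nothing by themselves. RNA was counted in 6 libraries of mouse stomach fibroblasts, sorted as live podoplanin-positive cells without CD31, CD45 or EpCAM, with MARS-seq, which counts the 3′ ends of polyadenylated transcripts. All mice were triple-transgenic iLgr5;GLI2A animals, 8 weeks old, controls included; in this model Lgr5-expressing stem cells are the cells in which an active form of GLI2 is switched on. The cancer-associated fibroblasts (CAF, 3 libraries from 5 mice) came from mice given tamoxifen by gavage for 5 days and then chow containing doxycycline over 3 weeks; their water held doxycycline too for the first 3 days. The normal fibroblasts (3 libraries from 4 mice) came from mice given corn oil without tamoxifen or doxycycline, so the drug treatment and the cancer cannot be told apart. CAF libraries 2 and 3 and normal library 3 each pooled 2 mice, and the others held 1 mouse.

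Retinol, or vitamin A, travels in blood on RBP4 and is oxidised inside cells in a pair of steps, first to retinaldehyde by retinol dehydrogenases such as RDH10 and then to retinoic acid by the ALDH1A enzymes. Retinoic acid is carried in the cytoplasm by CRABP proteins, acts on nuclear receptors (RAR with RXR) that bind DNA, and is broken down by CYP26 enzymes. Fibroblasts and other stromal cells are known sources of retinoic acid in the gut wall.

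Totals ranged from 644522 to 6422568 counts in the CAF libraries and from 768420 to 3259644 in the normal libraries. A level of 3 counts corresponded to 4.39 CPM (counts per 1000000, here on library sizes scaled by trimmed mean of M-values) in CAF library 1, the shallowest, and to 0.406 CPM in CAF library 3. All 9 fibroblast markers examined, among them Col1a1, Dcn and Pdgfra, had counts in every library. Genes of gastric glands (18 of 20 listed) took 0.540% to 0.855% of the counts in the CAF libraries, but 17.6%, 13.8% and 4.04% in normal libraries 1, 2 and 3. Squamous forestomach markers (10 of 10) summed to 119 to 150 CPM in CAF and to 1986, 3280 and 198 CPM in normal libraries 1 to 3. Mesothelial markers (8 of 10) summed to 39.5 to 193 CPM in CAF and 24.9 to 56.3 CPM in normal libraries, with overlap. Of these 8, 3 were higher in all CAF libraries and 0 lower in all, while Nkain4 and Gpm6a were highest in a normal library. Upk3b was at 0 in all normal libraries but at most 1.66 CPM in CAF. That is below the level of 3 counts in normal libraries 2 and 3 (3.80 and 3.75 CPM). General epithelial markers (8 of 8) summed to 3904, 1601 and 1548 CPM in CAF libraries 1 to 3 and to 4838, 2372 and 1046 CPM in normal libraries 1 to 3, with overlap. Of these 8, Krt7, Cldn4 and Cldn7 were higher in all CAF libraries and Krt19 was lower in all of them. Epcam, the marker sorted against, was at 114 to 233 CPM in CAF and 13.8 to 150 CPM in normal libraries. Pericyte markers (6 of 6) summed to 462, 358 and 243 CPM in CAF and 70.2, 76.0 and 243 CPM in normal libraries, immune markers (5 of 7) to 27.8 to 147 and 18.8 to 222 CPM, and endothelial markers (7 of 8) to at most 34.9 and 29.1 CPM. In these sorted but bulk samples, fewer cells of a type and less RNA per cell cannot be told apart.

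None of the 9 genes passed the threshold of 0.05 in the fit over all genes (the quasi-likelihood test of edgeR, p-values adjusted after Benjamini and Hochberg). The filter on low counts kept 7 of them, all but Crabp1 and Rarb, and 112 of the 10148 genes tested passed (1.1%). At an unadjusted p under 0.05 there were 2, Rbp4 and Crabp2, as were 15.3% of all genes tested. DESeq2 called 1, Crabp2, against 7.28% of the 12835 genes to which it gave an adjusted p, and limma-voom called 0, against 0.641% of all genes. Of the 7, 1 gene (Crabp2) was higher in every CAF library than in every normal library, as were 10.6% of all genes tested. Also 1 gene (Rbp4) was lower in every CAF library, as were 9.35%. The median log2 fold change of the 7 genes was 0.01, with 4 of 7 above 0, and that of all genes tested was 0.06, with 53.9% above 0. Since the genes were chosen with this comparison known, nothing is read from these counts. The number of genes called over the whole table rested on single libraries: it was 49, 4 and 29 without CAF library 1, 2 or 3 and 0, 6 and 1193 without normal library 1, 2 or 3 (793 at an unadjusted p under 0.05 for the 0).

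**Figure D1:**
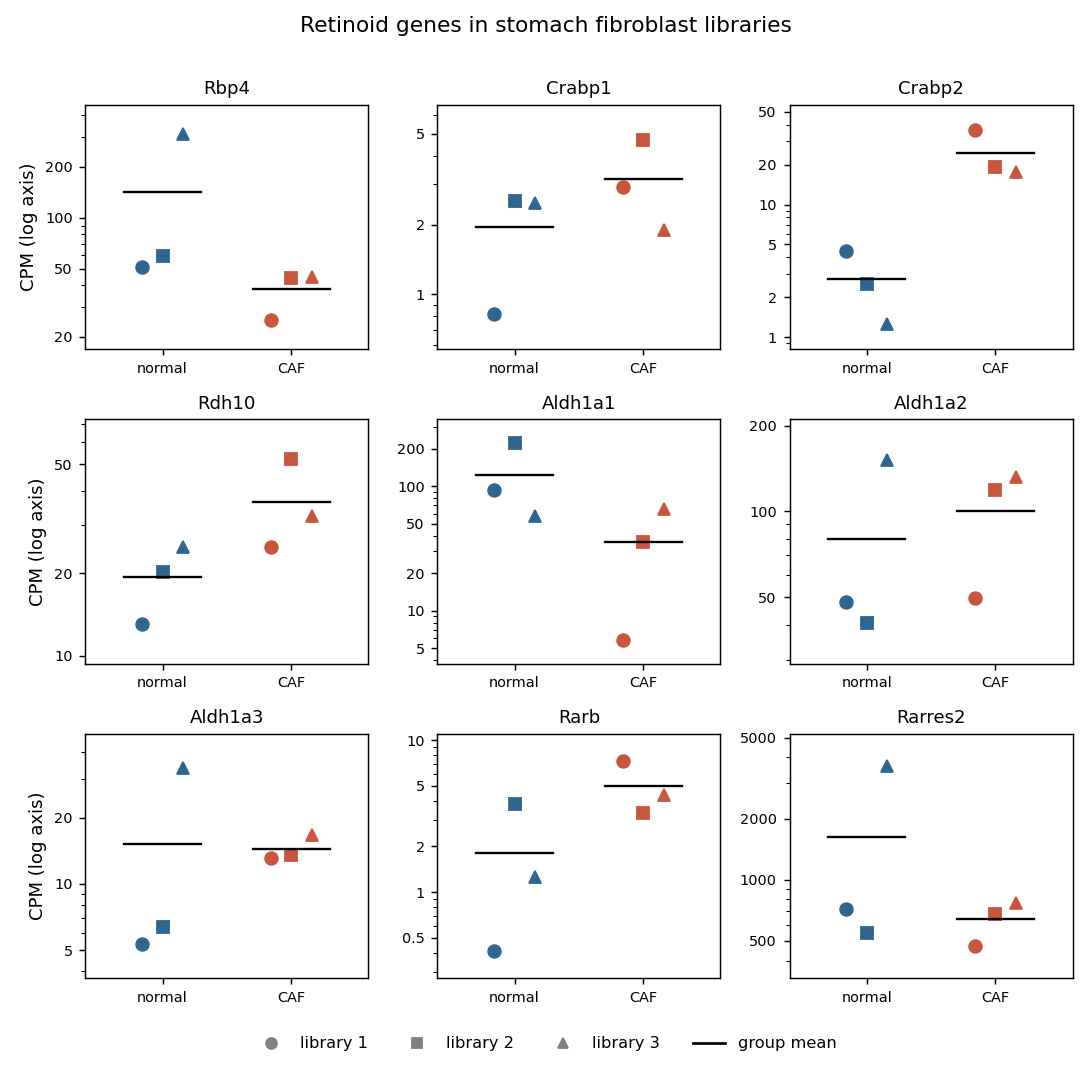
Level of each of the 9 retinoid genes in CPM (log axis) in the 3 normal and 3 CAF libraries, with marker shapes for libraries 1 to 3 and a line at the group mean. Crabp2 lies higher in all CAF libraries and Rbp4 lower, while Rbp4, Aldh1a2, Aldh1a3 and Rarres2 are highest in normal library 3.

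Among the binding proteins, the clearest separation was that of Crabp2, a cytoplasmic protein that delivers retinoic acid to its receptors (mm10 chromosome 3, 87948666 to 87953376, plus strand). Its level was 36.6, 19.0 and 17.6 CPM in CAF libraries 1, 2 and 3 and 4.49, 2.53 and 1.25 CPM in normal libraries 1, 2 and 3. The lowest CAF library thus lay above the highest normal library, and the most deviant CAF library was the shallow one. The normal values rested on 11, 2 and 1 counts, against 25, 138 and 130 in CAF. The fitted log2 fold change was 2.92 ± 0.60 (SE), or 7.57-fold higher in CAF, with adjusted p = 0.0666 by edgeR. In the authors' deposited table Crabp2 has a log2 fold change of 2.92 and an adjusted p of 0.00259, the only one of the 9 genes below 0.05 there. By edgeR it fell below 0.05 with mice per library as a covariate (adjusted p = 0.049) and without normal library 3 (adjusted p = 0.0418). Of all genes tested, 81 of 10148 passed in the former fit and 1193 of 11888 in the latter. Leaving out single libraries moved the log2 fold change of Crabp2 between 2.54 and 3.59. Some of the 8 epithelial markers had a similar pattern. Krt7 was at 966, 349 and 291 CPM in CAF and 69.4, 49.4 and 3.75 CPM in normal libraries. Cldn4 was at 135, 42.9 and 31.4 against 25.7, 11.4 and 1.25 CPM, and Cldn7 at 174, 86.3 and 83.0 against 19.6, 22.8 and 2.50 CPM. Like Crabp2, these genes and Epcam were highest in CAF library 1 and lowest in normal library 3. The rest, Cdh1, Krt8, Krt18 and Krt19, were highest in normal library 1, with Krt19 at 986 CPM there and 151 to 155 CPM in CAF. None of the 8 epithelial markers was at 0 in any library. The part of epithelial RNA in the Crabp2 difference was not tested.

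Its relative Crabp1, which also binds retinoic acid (chromosome 9, 54764748 to 54773110, plus strand), was near the limit of detection. It had 2, 34 and 14 counts in the CAF libraries and 2 in each normal library, or 2.93, 4.69 and 1.89 CPM against 0.816, 2.53 and 2.50 CPM. The groups overlapped, and with no filter on low counts the log2 fold change was 0.93. A difference in Crabp1 was not detectable at this depth.

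Rbp4, the secreted carrier of retinol (chromosome 19, 38116629 to 38125281, minus strand), was at 24.9, 44.3 and 44.9 CPM in CAF libraries 1 to 3. In normal libraries 1, 2 and 3 it was at 51.4, 59.5 and 313 CPM. The groups did not overlap, but the gap between the highest CAF and the lowest normal library was small, and normal library 3 stood 5.64-fold above the mean of the other normal libraries. The fitted log2 fold change was -1.85 ± 0.72 (SE; edgeR adjusted p = 0.275), 3.62-fold lower in CAF. Without normal library 3 it was -0.57, and against normal library 3 alone it was -2.94. Rbp4 was thus lower in CAF in each of these fits, by an amount that depended on that library.

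Of the enzymes, Rdh10, which carries out the first oxidation of retinol in many tissues (chromosome 1, 16105774 to 16133734, plus strand), was at 24.9, 52.2 and 32.5 CPM in CAF and 13.1, 20.3 and 25.0 CPM in normal libraries. CAF library 1 and normal library 3 had nearly equal levels, so the groups overlapped by this pair alone. The log2 fold change was 0.96 ± 0.43 (SE; edgeR adjusted p = 0.355), and it stayed between 0.61 and 1.16 with single libraries left out.

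Aldh1a1, a cytosolic retinaldehyde dehydrogenase also found in many epithelia (chromosome 19, 20492715 to 20643465, plus strand), was the most uneven of the ALDH1A genes within the CAF group. Its level was 5.85, 35.3 and 66.0 CPM in CAF libraries 1 to 3, from 4, 256 and 488 counts. It was 93.0, 220 and 57.5 CPM in normal libraries 1 to 3. CAF library 3 was above normal library 3, so the groups overlapped. The 2 highest values were those of normal libraries 1 and 2. These had the highest gland shares (17.6% and 13.8%) and the highest squamous sums (1986 and 3280 CPM). The log2 fold change was -1.72 ± 0.77 (SE, edgeR adjusted p = 0.35). It became -1.03 without normal library 2, -2.44 without CAF library 3 and -0.54 against normal library 3 alone. The part of gland or squamous RNA in this difference was not tested. The neighbouring gene Aldh1a7, a close copy of Aldh1a1, had 0, 3 and 8 counts in CAF and 47, 14 and 1 in normal libraries. How reads shared by such copies were assigned is not given in the sources used here, so Aldh1a1 values carry that uncertainty.

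Aldh1a2, the main retinoic acid-forming enzyme of embryonic and adult mesenchyme (chromosome 9, 71215789 to 71296243, plus strand), was at 49.7, 119 and 132 CPM in CAF and 48.1, 40.5 and 151 CPM in normal libraries. The highest and the lowest library were both normal. The log2 fold change was 0.35 ± 0.59 (SE), 1.13 without normal library 3 and -0.51 with normal libraries 1 and 2 left out. No direction can be given for it.

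Aldh1a3, the remaining retinaldehyde dehydrogenase of the family (chromosome 7, 66390890 to 66427517, minus strand), was even across CAF at 13.2, 13.5 and 16.6 CPM. In normal libraries it was 5.30, 6.33 and 33.8 CPM, so that the CAF values lay between those of normal library 3 and the other normal libraries. Its log2 fold change was 0.01 ± 0.71 (SE). It turned negative in several fits, for example to -1.15 against normal library 3 alone, and was 1.28 without that library.

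The make-up of the ALDH1A counts showed the same division among the normal libraries. Of the counts of Aldh1a1, Aldh1a2 and Aldh1a3 together, Aldh1a2 made up 72.3% (95% exact binomial interval 57.4% to 84.4%), 70.9% (68.3% to 73.5%) and 61.5% (59.1% to 63.9%) in CAF libraries 1, 2 and 3. In normal library 3 it was 62.4% (55.1% to 69.2%), an interval that holds the value of CAF library 3. In normal libraries 1 and 2 it was 32.9% (28.0% to 38.0%) and 15.2% (10.6% to 20.7%), and there Aldh1a1 took 63.5% and 82.5%. The Aldh1a1 share was 8.51%, 21.0% and 30.7% in the CAF libraries and 23.7% in normal library 3. Aldh1a2 therefore led the ALDH1A counts in 4 libraries, and Aldh1a1 in the 2 with the most gland and squamous forestomach RNA. The summed level of the 3 genes was 68.8, 168 and 215 CPM in CAF and 146, 267 and 243 CPM in normal libraries, with overlap. The intervals cover counting error only. They treat each count as a separate molecule, although the use of molecular identifiers is not given in the sources used here, so they may be too narrow. Counts of 3′ ends are not divided by transcript length, and these shares compare counts within a library.

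**Figure D2:**
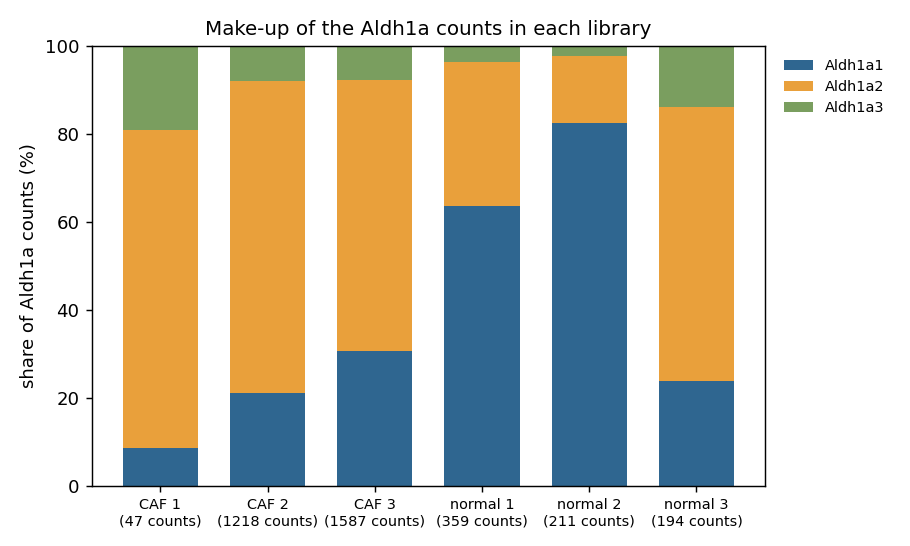
Share of the summed Aldh1a1, Aldh1a2 and Aldh1a3 counts (%) that each gene took in each library, with the number of counts under each bar. Aldh1a2 is the largest part in the 3 CAF libraries and normal library 3, and Aldh1a1 in normal libraries 1 and 2.

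Rarb encodes retinoic acid receptor beta, a receptor whose own gene is a well-known target of retinoic acid (chromosome 14, 16430839 to 16819156, minus strand). It was at 7.32, 3.31 and 4.33 CPM in CAF, from 5, 24 and 32 counts, and at 0.408, 3.80 and 1.25 CPM in normal libraries, from 1, 3 and 1 counts. Normal library 2 lay above CAF library 2, so the groups overlapped. Without a filter on low counts the log2 fold change was 1.63 (edgeR adjusted p = 0.433), and it ranged from 1.40 to 2.71 in the 3 fits without a single library in which Rarb was kept. A difference was not detectable at this depth.

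RefSeq promoter windows (GRCm38.p6, 250 bases before to 50 after a start site) were found for 5 of the 9 genes, as 7 windows. They were searched on both strands for a direct repeat of the retinoic acid receptor half-site, written as AGGTCA or AGTTCA or GGTTCA or GGGTCA, with 5 or with 2 bases between the copies. The Rarb window, at chr14:16575427-16575726 on the minus strand, was the only one of the 7 that held one. A repeat spaced by 5 bases was found in 0.0974% and one spaced by 2 bases in 0.268% of 32851 windows of this length. These shares do not test the match. The half-sites were written from known forms of the receptor's site, and Rarb was already known as a target of retinoic acid. The Rarb window is printed for this match, with the repeat, spaced by 5 bases, in capitals from position -53 counted from the start site.

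Rarb: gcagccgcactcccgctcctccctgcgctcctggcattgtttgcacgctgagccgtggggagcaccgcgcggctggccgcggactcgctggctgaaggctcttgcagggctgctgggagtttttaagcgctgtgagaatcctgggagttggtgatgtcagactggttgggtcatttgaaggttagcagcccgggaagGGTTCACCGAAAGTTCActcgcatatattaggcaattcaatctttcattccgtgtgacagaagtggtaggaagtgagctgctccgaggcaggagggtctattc

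The match describes letters in the reference sequence; binding there was not measured, and the counts do not tell which Rarb start site was used.

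Rarres2 encodes chemerin, a secreted attractant of immune cells and adipokine first described as a retinoid-responsive gene (chromosome 6, 48569696 to 48572789, minus strand). It was at 471, 682 and 770 CPM in CAF libraries 1 to 3 and at 716, 547 and 3622 CPM in normal libraries 1 to 3. Normal libraries 1 and 2 lay within the CAF range, and normal library 3 was 5.74-fold above their mean. The log2 fold change of -1.34 ± 0.73 (SE; edgeR adjusted p = 0.452) was -0.04 without normal library 3. The lower CAF mean thus rested on normal library 3.

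The receptors of chemerin gave values for 3 of 3 genes, of which 2 were tested and none passed. Cmklr1, the signalling receptor, was at 21.9, 25.5 and 38.0 CPM in CAF and 13.5, 12.7 and 95.0 CPM in normal libraries, again highest in normal library 3. Ccrl2, which binds chemerin without signalling, had a log2 fold change of 0.60 ± 0.62 (SE).

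Normal library 3 was the highest of the 6 libraries for 4 of the 7 tested genes, namely Rbp4, Aldh1a2, Aldh1a3 and Rarres2, as it was for 20.1% of all genes tested. For these 4 genes it exceeded the mean of normal libraries 1 and 2 by 5.64-fold, 3.41-fold, 5.80-fold and 5.74-fold. For Crabp2 and Aldh1a1 the ratio was 0.356 and 0.367, so normal library 3 was low for both. This library came from a pool of 2 mice and had the lowest gland share of the normal libraries. Its summed level of the 9 fibroblast markers was the highest of the normal libraries (14405 CPM, against 5242 and 9379 CPM). Among them, Col3a1, Lum and Pdpn were higher in normal library 2. In CAF libraries 1 to 3 the same sum was 8229, 23231 and 28174 CPM. The part of these features in the gene levels was not tested.

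**Figure D3:**
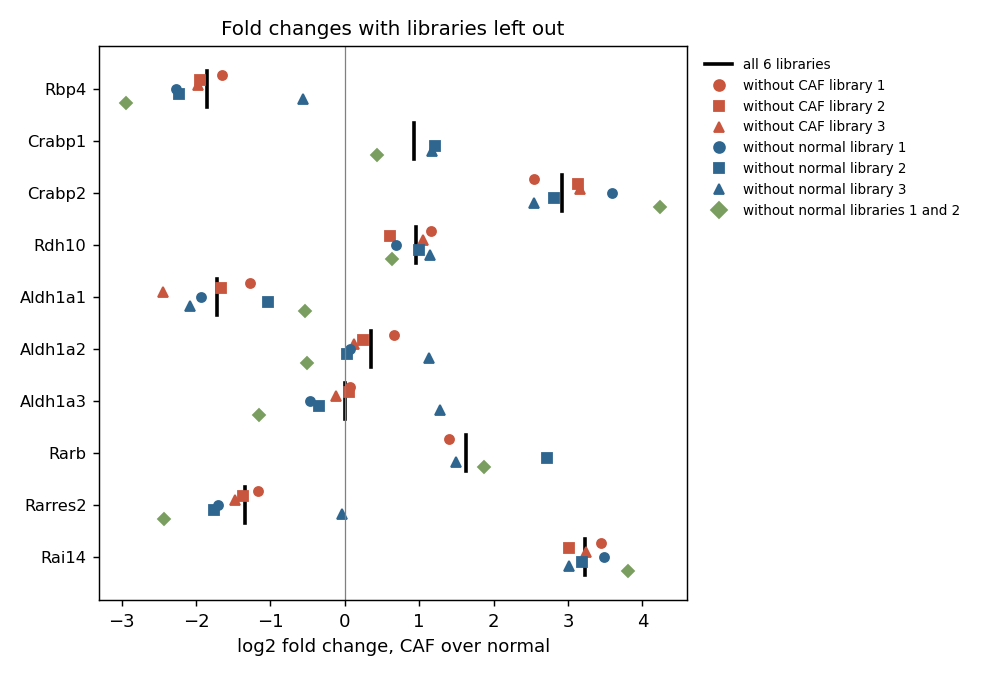
Log2 fold change (CAF over normal) of the 9 retinoid genes and of Rai14 with all 6 libraries (black bar; for Crabp1 and Rarb the fit without a filter on low counts) and with libraries left out (coloured markers; no marker where the gene was below the filter). Among fits without 1 library, those of Rarres2, Rbp4, Aldh1a2 and Aldh1a3 each lie farthest from the bar without normal library 3, while Rai14 stays between 3.01 and 3.48.

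To place these genes, 61 other genes of retinoid uptake, turnover and signalling were examined by role. The table held 46 of them and 36 were tested, of which 1, Rai14, rose and 0 fell by edgeR (1.1% of all genes tested passed). At an unadjusted p under 0.05 there were 6 of 36, near the 15.3% of all genes tested. The median log2 fold change of the 36 was -0.17, with 44.4% above 0. DESeq2 gave an adjusted p to 43 of them and called 1 higher and 4 lower, against 7.28% of all genes called in either direction. With limma-voom 0 of 36 were called (7 at an unadjusted p under 0.05), against 0.641% of all genes, and the median was 0.12.

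Of the genes of uptake, storage and carotenoid cleavage, 8 of 11 were in the table and 4 were tested, of which none passed. The genes of smallest p were Ttr, the plasma partner of RBP4, and Dgat1, which can esterify retinol. The level of Ttr was 8.78, 12.1 and 9.20 CPM in CAF and 675, 519 and 28.8 CPM in normal libraries, a log2 fold change of -5.32 ± 1.05 (SE; edgeR adjusted p = 0.0621). Its 2 high libraries were those with the highest gland share and squamous sum. The part of gland or squamous RNA was not tested. Dgat1 was at 46.8, 40.4 and 33.5 CPM in CAF and 55.5, 41.8 and 62.5 CPM in normal libraries, with overlap and a log2 fold change of -0.42 ± 0.32 (SE).

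Of the other retinol dehydrogenases and reductases, 10 of 17 were in the table and tested, and none passed. The genes of smallest p were Rdh7, one of a cluster of similar dehydrogenase genes, and Adh7, an alcohol dehydrogenase of stomach epithelium that oxidises retinol. Adh7 was at 2.93, 9.11 and 7.57 CPM in CAF and 64.9, 88.7 and 11.3 CPM in normal libraries (log2 fold change -2.94 ± 0.74 SE, edgeR adjusted p = 0.0998). Rdh7 had 0, 6 and 22 counts in CAF and 132, 65 and 4 in normal libraries (edgeR adjusted p = 0.0791). In both genes normal library 3 was much closer to CAF than the other normal libraries were. DESeq2 called both lower, with Rdh12 and Ttr. Dhrs3, a retinaldehyde reductase that retinoic acid induces in many cells, was named after its values were seen. It was at 161, 149 and 185 CPM in CAF and 139, 144 and 96.3 CPM in normal libraries, without overlap but with a log2 fold change of only 0.38 ± 0.30 (SE). Dhrs4, named likewise, was also higher in every CAF library (0.46 ± 0.29 SE), while Rdh7, Rdh12 and Adh7 were lower in every one. Of all genes tested, 10.6% were higher and 9.35% lower in every CAF library.

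**Figure D4:**
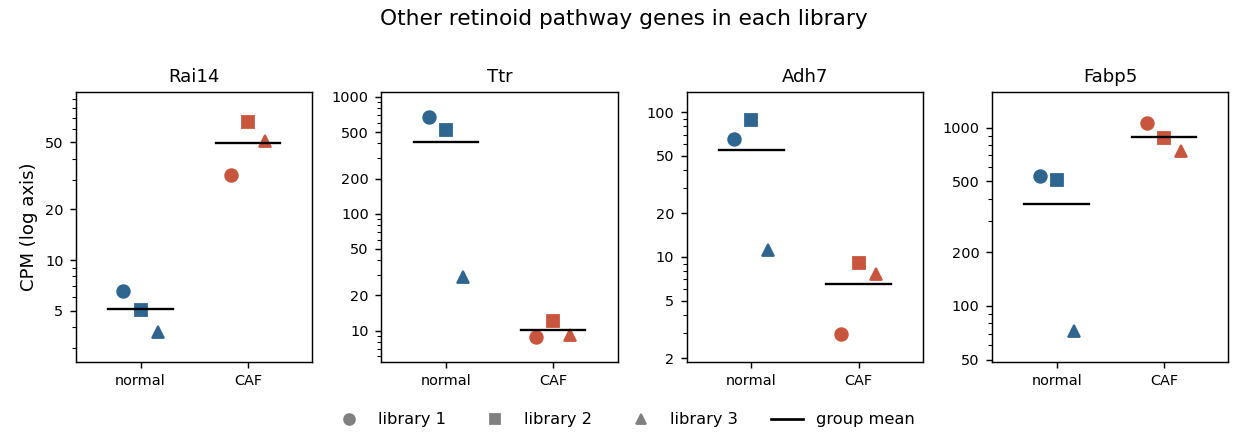
Level in CPM (log axis) of Rai14, Ttr, Adh7 and Fabp5 in each library, with marker shapes for libraries 1 to 3 and a line at the group mean. Rai14 and Fabp5 are higher in all CAF libraries, whereas Ttr and Adh7 are high in normal libraries 1 and 2 only, at 675 and 519 CPM for Ttr.

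Among retinoic acid target genes, 11 of 14 were in the table and 7 were tested, of which 1 rose. The median log2 fold change of the 7 was -0.15, with 3 of 7 above 0. Rai14, an actin-associated protein first described as induced by retinoic acid (chromosome 15, 10568969 to 10714624, minus strand), was at 32.2, 66.0 and 51.3 CPM in CAF and 6.53, 5.07 and 3.75 CPM in normal libraries. It rose 9.40-fold (log2 fold change 3.23 ± 0.45 SE, edgeR adjusted p = 0.0265), higher in 3 of 3 CAF libraries. It did not pass without CAF library 2 (adjusted p = 0.125), CAF library 3 (adjusted p = 0.0964), normal library 1 (adjusted p = 0.156) or normal library 2 (adjusted p = 0.124), nor with limma-voom (adjusted p = 0.0572) or with mice per library as a covariate (adjusted p = 0.0668). Its fold change lay between 3.01 and 3.48 on the log2 scale in the fits without 1 library, and was 3.81 (adjusted p = 0.302) against normal library 3 alone. Of the others, named after their values were seen, Gprc5a, a retinoic acid-induced membrane receptor, was at 49.7, 34.6 and 29.8 CPM in CAF and 214, 166 and 25.0 CPM in normal libraries, with overlap and a log2 fold change of -1.86 ± 0.69 (SE). Hoxb5, a patterning gene, had a log2 fold change of -1.47 ± 0.77 (SE), with its highest level in normal library 3.

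Of the enzymes of retinoic acid breakdown, Cyp26b1 was the 1 of 3 in the table. It was at 17.6, 9.52 and 3.92 CPM in CAF and 7.75, 25.3 and 0 CPM in normal libraries, with wide overlap; the 0 counts of normal library 3 allow a level of up to 3.75 CPM. All 11 other receptors and co-regulators were in the table and 10 were tested. None passed, and their median log2 fold change was 0.03. The genes of smallest p were Ncoa3, a co-activator, at -1.16 ± 0.54 (SE), and Nrip1, a co-repressor, at 1.11 ± 0.74 (SE) on the log2 scale. Fabp5 and Ppard, a carrier and a receptor of an alternative route for retinoic acid, were both tested without passing. Fabp5 was at 1062, 874 and 737 CPM in CAF and 539, 508 and 72.5 CPM in normal libraries, so the groups did not overlap (log2 fold change 1.25 ± 0.67 SE, edgeR adjusted p = 0.443). Its order over the libraries was that of Crabp2, Krt7 and Cldn4. It was not that of the epithelial markers Cdh1, Krt8, Krt18 and Krt19, which were highest in normal library 1. The part of epithelial RNA in the Fabp5 levels was not tested.

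**Figure D5:**
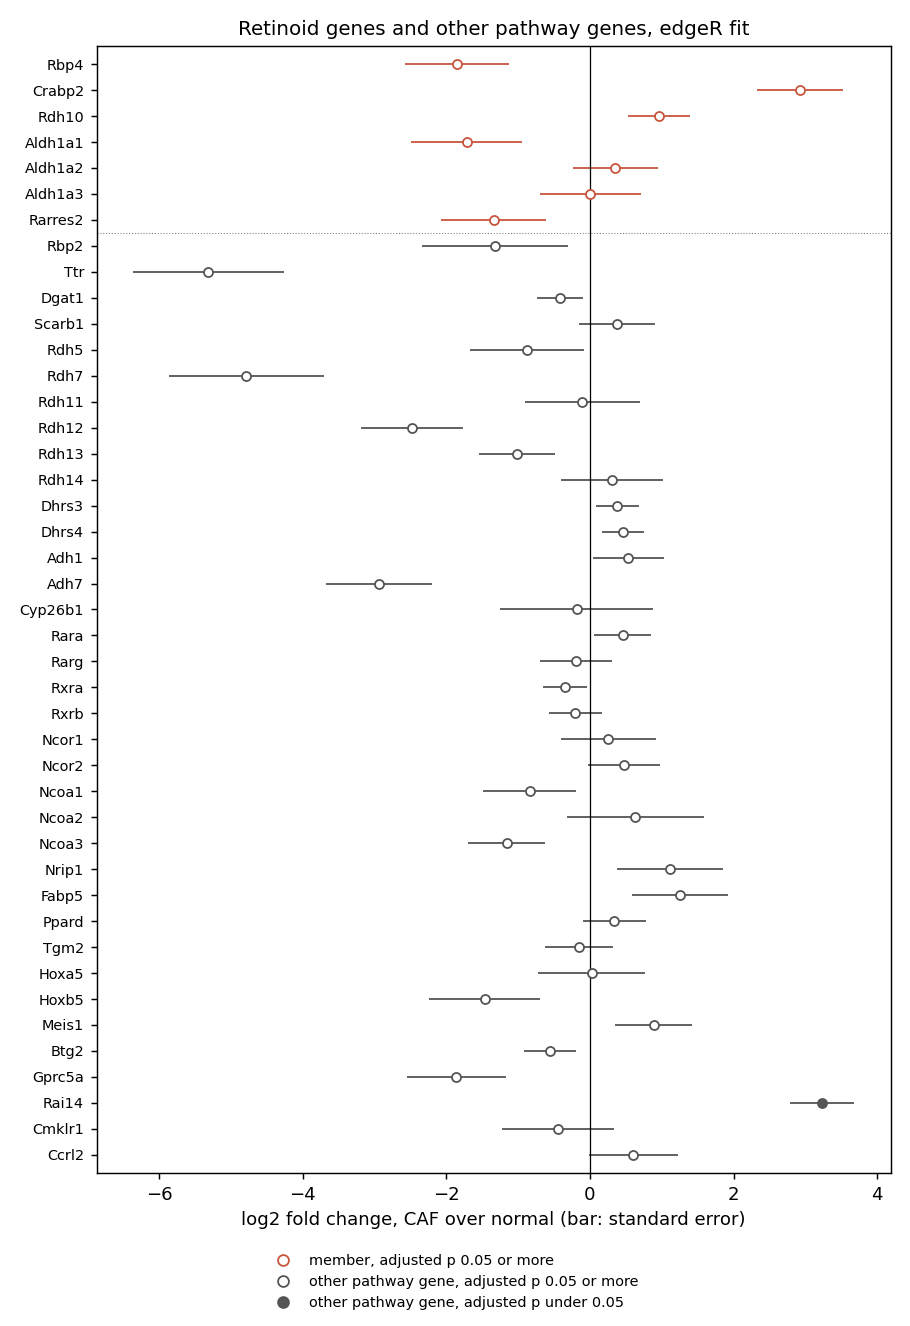
Log2 fold change (CAF over normal) with its standard error for the 7 retinoid genes tested (red, above the dotted line) and 36 other pathway genes (grey); filled points have an adjusted p under 0.05. Only Rai14 is filled, at 3.23.

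The genes whose levels followed these most closely over the 6 libraries were named by their correlation (Pearson's r of log2 CPM, with 1 CPM added). The points share libraries and depth, and the values are a description. Each r is the top of a search over the tested genes with a mean of at least 20 counts. Such a search over 6 libraries gives high r by selection, so its size shows no particular closeness. The genes found were Papss1 and Icosl for Rbp4, with r of 0.988 and 0.984, and Psrc1 and Nptx1 for Crabp2, with 0.998 and 0.996. For Rdh10 they were Rcn2 and Eid2, with 0.982 and 0.970. For Aldh1a1 they were Myo6 and Arhgef18, with 0.991 and 0.990. Adcy7 and Fndc1 were nearest to Aldh1a2, both at 0.991, and Capn2 and Pcolce to Aldh1a3, at 0.996 and 0.995. Ccdc3 and Tmem109 were nearest to Rarres2, at 0.992 and 0.991. Pcolce, a matrix protein that enhances collagen processing, was at 837, 842 and 1026 CPM in CAF and 449, 461 and 2074 CPM in normal libraries, the same order as Aldh1a3 with normal library 3 highest. Nptx1 was at 74.6, 38.8 and 22.6 CPM in CAF and at or below 2.45 CPM in normal libraries, like Crabp2 highest in CAF library 1. Among the retinoid genes themselves with a mean of at least 20 counts, the highest r were 0.957 for Rbp4 with Rarres2 and 0.839 for Aldh1a2 with Aldh1a3. All of these genes were highest in normal library 3. The lowest r was -0.813 for Rbp4 with Crabp2, and other pairs lay between, such as Crabp2 with Aldh1a2 at 0.002.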

How the data were processed

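RNA of 3 CAF and 3 normal fibroblast libraries was analysed from 1 table. Per the submitters' processing notes, cutadapt, STAR, HTSeq and DESeq2 and the build mm10 were used. Not given in the sources used here were versions, annotation, strand and the use of molecular identifiers. The raw counts per gene symbol deposited by the authors were tested. The deposited normalized signal (count over 1 size factor per library), the deposited regularized log2 values and the deposited p-values of the authors' own comparison were not tested; the deposited log2 fold changes and adjusted p-values are quoted as theirs. Every listed gene has at least 6 counts in some library.

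Counts were tested with edgeR 4.0.16 (R 4.3.3): filterByExpr, trimmed mean of M-values, glmQLFit and glmQLFTest on group alone, Benjamini-Hochberg over 10148 genes, threshold 0.05. Standard errors are approximate, the fold change divided by the root of F. The fit was tested on simulated data. Alternatives were DESeq2 1.42.0, limma-voom (limma 3.58.1), other scalings and filters, mice per library as a covariate and left-out libraries. The text names the 9 genes; of each role list the called genes (up to 4) or the 2 of smallest p; and for each of the 9 with a mean of at least 20 counts the 2 best-correlated genes. The genes, lists and tests were chosen with earlier results of these data known. Gene positions are from GENCODE M21 and promoters from RefSeq (GRCm38.p6). One gene of the pathway lists is not reported here and was left out of their counts.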

Additional observations from a re-analysis of the deposited data

How the results depend on the processing

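Over 15 alternatives, the direction of Rbp4, Crabp2, Rdh10, Aldh1a1, Rarres2 and Rai14 was kept in all, and none of the 9 genes was called in 12. For Rarres2 the direction was kept in name only without normal library 3, where the log2 fold change was -0.04. The number of genes called was 935 with DESeq2 and 65 with limma-voom, 0 to 1193 with 1 library left out, and 0 with normal libraries 1 and 2 left out (1271 at an unadjusted p under 0.05). Of the 9 genes, the number called was 1 with DESeq2, 1 with mice per library as a covariate and 0 to 1 with 1 library left out, each time Crabp2. Of all genes tested, 935 of 12835 passed with DESeq2, 81 of 10148 with the covariate and 1193 of 11888 without normal library 3. Pathway genes called higher numbered 1, Rai14, and this was 0 with limma-voom, 0 with the covariate, 0 to 1 with 1 library left out and 0 with normal libraries 1 and 2 left out. Those called lower numbered 4 with DESeq2 and 0 to 5 with 1 library left out. The 5 were Adh7, Bco2, Gprc5a, Rdh7 and Ttr, of 40 pathway genes tested without normal library 3. In that fit 1193 of all 11888 genes tested passed in either direction, so nothing particular to the pathway is read from the 5. Aldh1a2 turned to -0.068 with the covariate and -0.51 with normal libraries 1 and 2 left out. Aldh1a3 turned to -0.043 with DESeq2, -0.022 with size factors by relative log expression, -0.19 with the covariate and -1.15 with normal libraries 1 and 2 left out, and ranged from -0.47 to 1.28 with 1 library left out, negative without CAF library 3 (-0.12), normal library 1 or normal library 2 (-0.34). The cause was not tested. With normal libraries 1 and 2 left out, the lone normal library was assumed to vary like the CAF group. Crabp1 and Rarb were below the filter in most fits, and depth limits both. No paired analysis was possible because the replicate numbers follow accession order and pair no CAF library with a normal one.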
